A study of Mus musculus with 6 samples.

Results

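The genes described here are 217 transcripts, 187 of them on lists of liver functions, that were raised in the libraries numbered 1 of both groups of a mouse lung study. They were chosen from their values in CPM (estimated counts relative to the library total, on the usual counts-per-million scale). A gene was taken where the lower of its values in Aalter-1 and VE-1 was above 1 CPM and where that value, with 0.3 CPM added, was more than 2 times the highest value in the other 4 libraries with 0.3 CPM added. Of 21956 genes listed, 11776 had a lower value above 1 CPM, and 217 of these (1.84%) met the rule. Because this rule used the levels in all 6 libraries, the height of these genes in Aalter-1 and VE-1 is a description and carries no test. The ratio that the rule compares with 2 ranged from 2.03 to 18.3 over the genes, with a median of 4.76. Just inside it stood Vnn1 at 2.03, Pank1 at 2.04 and Col18a1 at 2.06, and just outside stood Urah at 1.97, Abcc2 at 1.95 and Cbs at 1.89.

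RNA sequencing was done on mouse samples that the labels call lung tissue, with 3 libraries in the group Aalter and 3 in the group VE. The labels do not spell out either name and give no strain, age, sex, treatment or time, while the title of the series concerns allergic airway inflammation and alpha tocopherol, the main vitamin E of tissues. Nothing in the labels says that libraries of a group come from separate animals, so spreads and p-values cover these libraries only and may be technical. The labels give no batch, and a replicate number names a library without saying what the libraries that carry it share.

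Hepatocytes, the main cells of the liver, make most proteins of blood plasma, among them albumin, the apolipoproteins of lipoprotein particles, the clotting factors and the protease inhibitors called serpins. They also break down amino acids, make urea and glucose, and oxidise and conjugate foreign compounds with cytochrome P450 enzymes and transferases. In the mouse, the liver of males in particular secretes major urinary proteins, small carriers of volatile scents that pass into urine.

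Library totals lay between 11617074 and 16205053 estimated counts, so that 3 counts, the limit that a count of 0 allows, came to between 0.185 and 0.258 CPM (counting error only). Leukocyte transcripts were high, with S100a9 of neutrophils at 12054 to 19515 CPM and Ptprc of all leukocytes at 1128 to 1489 CPM. Sftpc, the surfactant gene of alveolar type 2 cells, lay between 12.6 and 17.7 CPM. A list of 15 lung epithelium genes that holds Sftpc summed to between 350 and 596 CPM, and Scgb1a1 of that list lay between 85.6 and 345 CPM. Aalter-1 stood apart from its group beyond the liver genes. Over 6880 other genes that differed between the groups when both libraries numbered 1 were left out, Aalter-1 had a median position of 0.58 on a log2 scale where 0 is the mean of Aalter-2 and Aalter-3 and 1 the mean of VE-2 and VE-3. On the same scale VE-1 stood at 0.98. Results on the groups are therefore also given without these libraries.

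The promoters of 4 of these genes are shown, 3 picked as windows with matches to motifs of liver factors and 1 as a window with none, so they are not typical of the set. Sequences are from RefSeq on GRCm38.p6, the assembly also called mm10, as windows of 300 bases, 250 before the transcription start and 50 after it, written 5′ to 3′ on the strand of the gene. Capitals mark matches, on either strand, to TATAAA (the TATA box), GTTAAT (part of an HNF1 site), CAAAGTCCA (HNF4), TTGCNNAA (C/EBP) or TGTTTAC (FOXA), of which the last 4 are motifs of transcription factors known in liver. Alb, for albumin, lies at chr5:90460620-90460919 on the plus strand, Fgb, for the fibrinogen beta chain, at chr3:83049814-83050113 on the minus strand, Serpina1a, for an alpha-1-antitrypsin, at chr12:103863570-103863869 on the minus strand, and Mup3, for a major urinary protein, at chr4:62087268-62087567 on the minus strand.
Alb: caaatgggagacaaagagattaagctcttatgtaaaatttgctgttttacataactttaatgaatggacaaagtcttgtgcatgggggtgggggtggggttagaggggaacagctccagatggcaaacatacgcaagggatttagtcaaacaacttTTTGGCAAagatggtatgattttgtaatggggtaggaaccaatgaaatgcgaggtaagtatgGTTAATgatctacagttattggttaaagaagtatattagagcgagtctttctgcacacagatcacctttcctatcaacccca
Fgb: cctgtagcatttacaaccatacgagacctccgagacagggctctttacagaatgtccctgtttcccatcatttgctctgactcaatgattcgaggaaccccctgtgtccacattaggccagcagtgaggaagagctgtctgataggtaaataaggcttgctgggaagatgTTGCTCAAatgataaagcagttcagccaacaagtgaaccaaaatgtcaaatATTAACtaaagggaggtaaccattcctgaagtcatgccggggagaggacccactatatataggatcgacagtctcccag
Serpina1a: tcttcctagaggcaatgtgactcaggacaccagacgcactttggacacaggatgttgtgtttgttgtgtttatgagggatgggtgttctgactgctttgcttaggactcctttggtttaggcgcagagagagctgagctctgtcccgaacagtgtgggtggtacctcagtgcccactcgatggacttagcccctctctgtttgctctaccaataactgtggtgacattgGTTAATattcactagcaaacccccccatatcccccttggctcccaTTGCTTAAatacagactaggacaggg
Mup3: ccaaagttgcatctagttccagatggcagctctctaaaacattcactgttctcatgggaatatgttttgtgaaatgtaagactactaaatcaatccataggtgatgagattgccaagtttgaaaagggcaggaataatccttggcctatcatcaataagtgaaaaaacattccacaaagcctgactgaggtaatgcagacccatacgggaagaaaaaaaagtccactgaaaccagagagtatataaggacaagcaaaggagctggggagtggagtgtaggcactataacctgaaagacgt
Alb, Fgb and Serpina1a each hold a GTTAAT and a C/EBP match in these windows, and Mup3 holds no match to the 5 motifs. The windows of other abundant genes differ: that of Ahsg holds a C/EBP match only, and that of Apoa2 a TATA box and a FOXA match.

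Promoter windows were found for 165 of the 217 genes. GTTAAT stood in 24.2% of them against 7.20% of all 27025 mouse windows, CAAAGTCCA in 4.24% against 0.477%, TTGCNNAA in 26.7% against 10.8%, and TGTTTAC in 6.06% against 3.55%. The TATA box stood in 26.7% against 14.2%. Any of the 4 factor motifs was present in 50.3% of the windows of these genes and in 20.1% of all windows. A match says only that these letters are present and does not show binding.

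Together the 217 genes made up 0.290% of counts in Aalter-1 (Wilson 95% interval 0.287% to 0.292%) and 0.322% in VE-1 (0.319% to 0.325%). In Aalter-2, Aalter-3, VE-2 and VE-3 they made up 0.0211%, 0.0262%, 0.0127% and 0.0189%. Both libraries numbered 1 were thus high and the other 4 low, with a summed level of 2896 CPM in Aalter-1 against 262 CPM in Aalter-3, the highest of the other 4. The genes were not all absent from those 4 libraries: 24 were at 0 in Aalter-2, 17 in Aalter-3, 39 in VE-2 and 24 in VE-3, and only Mup12 and Ugt1a9 were at 0 in all 4. In bulk RNA, fewer cells of a type and less RNA per cell cannot be told apart.

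Markers of hepatocytes were listed with earlier results of these data known, so they describe the label and do not test it. Of these markers, 15 of 16 met the rule: Alb, Apoa1, Apoa2, Apoc3, Apob, Ahsg, Ttr, Fga, Fgb, Serpina1a, Serpina1c, Cyp2e1, Cps1, Tat and Hnf4a. The exception was Ass1, a urea cycle enzyme that many cells use, at 108, 70.9 and 73.7 CPM across Aalter libraries 1 to 3 and 105, 92.3 and 109 CPM across VE libraries 1 to 3. Markers of the other cells of the liver did not meet it: 0 of 13 for Kupffer cells, 0 of 13 for sinusoidal endothelium, 0 of 15 for stellate cells and 0 of 12 for cholangiocytes. Of these, 7, 8, 8 and 5 did not exceed 1 CPM in both libraries numbered 1 and could not meet it, and with 1.84% of eligible genes taken in all, counts of 0 in lists this short say little. Clec4f, a lectin of Kupffer cells, lay just under the limit of 1 CPM, with 15, 0 and 0 counts across Aalter libraries 1 to 3 and 16, 1 and 0 across VE libraries 1 to 3. Clec4g, a lectin of sinusoidal endothelium, had 8, 0 and 2 counts and 12, 2 and 0 counts in the same order. Both were highest in the libraries numbered 1, at 16 counts or fewer, and both were picked from their lists. In both libraries numbered 1, 3 of 13 Kupffer cell genes and 2 of 13 sinusoidal endothelium genes stood above the other 4 libraries. Marco, on the Kupffer cell list, did not, with 34.4, 34.6 and 33.6 CPM and 37.8, 31.4 and 29.9 CPM. Nor did Stab2, on the endothelium list, with 3, 0 and 3 counts and 3, 2 and 2 counts. Among lists of other organs, 0 of 16 kidney genes, 0 of 17 exocrine pancreas genes, 0 of 16 intestine genes and 0 of 15 lung epithelium genes met the rule, where 16, 16, 13 and 2 did not exceed 1 CPM in both, and the 1 gene from the fat tissue list was Pck1, which the liver also makes.

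All 217 genes are annotated as protein-coding, 57 were above 10 CPM in both libraries numbered 1, and 187 stood on at least 1 of the lists of liver functions. These lists were drawn up with earlier results of these data known, and the share of all genes on them was not counted. The number 187 is therefore a description. For short, all 217 are called liver genes in this text, also the 30 on none of the function lists. Levels were uneven. Per kilobase of the longest transcript, Alb led at 334 CPM per kilobase (mean of Aalter-1 and VE-1), followed by Mup22 at 126, Apoa2 at 109, Apoc1 at 72.0 and Fabp1 at 50.5. The 20 genes with the highest level per kilobase held 53.9% of the summed CPM of all 217. The median gene stood at 2.25 CPM per kilobase.

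**Figure D1:**
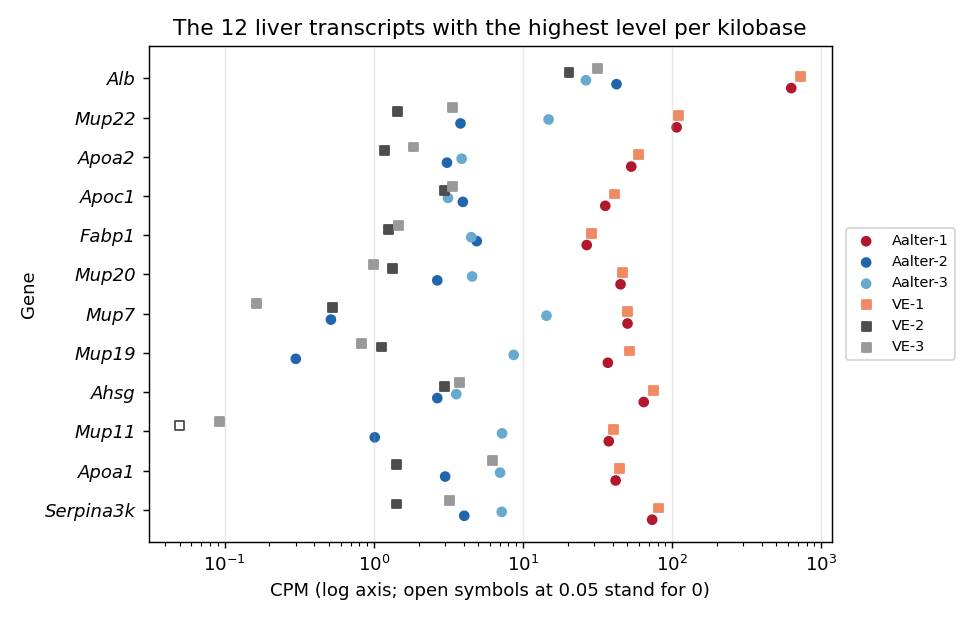
CPM on a log axis in each of the 6 libraries for the 12 genes with the highest level per kilobase, 1 row per gene and 1 symbol per library (an open symbol stands for 0). Both libraries numbered 1 stand to the right of the other 4 in every row, since the genes were chosen for this, and among Mup7, Mup19 and Mup11 the next highest library is Aalter-3.

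Carriers and binding proteins of plasma formed the largest group by level, with 19 members. Alb, the most abundant protein of plasma, had 630, 42.4 and 26.5 CPM across Aalter libraries 1 to 3 and 729, 20.4 and 31.7 CPM across VE libraries 1 to 3. It alone held 21.7% of the summed level of the 217 genes in Aalter-1 and 22.6% in VE-1. Ahsg, the carrier fetuin-A, had 64.6, 2.67 and 3.58 CPM and 74.7, 3.001 and 3.78 CPM. Ttr, which carries thyroid hormone and retinol-binding protein, had 41.1, 2.24 and 2.34 CPM and 45.8, 0.948 and 1.79 CPM. Each of these genes was highest in VE-1, next in Aalter-1 and much lower elsewhere. Gc, the vitamin D-binding protein, reached 51.3 and 52.3 CPM in Aalter-1 and VE-1 and at most 3.44 CPM in the other 4. Hpx, the haem-binding hemopexin, reached 42.4 and 44.2 CPM against at most 3.44 CPM, and Rbp4, which carries retinol, 25.7 and 28.7 CPM against at most 1.29 CPM.

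Because the series concerns vitamin E, the liver proteins that handle it are given here, chosen after their values were seen. Ttpa, the alpha-tocopherol transfer protein that loads vitamin E for export from hepatocytes, had 5.14, 0.172 and 0.185 CPM across Aalter libraries 1 to 3 and 3.73, 0.632 and 0.531 CPM across VE libraries 1 to 3. Its ratio of VE-1 to Aalter-1 was 0.726, with an exact 95% counting interval from 0.505 to 1.04. Afm, for afamin, a plasma protein that binds vitamin E, had 1.19, 0.172 and 0.123 CPM and 1.36, 0.237 and 0 CPM. Both genes followed the numbering of the libraries, as the rule requires.

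Apolipoproteins and lipid carriers had 16 members of 28 genes listed, with a summed level of 255, 22.0 and 29.7 CPM across Aalter libraries 1 to 3 and 280, 9.63 and 22.8 CPM across VE libraries 1 to 3. Apoa2, a structural protein of high-density lipoprotein, had 53.3, 3.10 and 3.89 CPM and 59.6, 1.18 and 1.86 CPM. Apoa1, the main protein of the same particle, had 41.9, 3.01 and 7.03 CPM and 44.4, 1.42 and 6.23 CPM. Among the other 4 libraries Apoa1 was thus higher in those numbered 3. Apoa4, which liver and gut both make, had 12.05, 0.430 and 2.96 CPM and 15.1, 0.316 and 3.25 CPM, and Apob, the large protein of very low-density lipoprotein, 22.4, 1.72 and 3.64 CPM and 21.1, 0.553 and 3.71 CPM. Fabp1, the fatty acid-binding protein of liver and gut, had 26.8, 4.91 and 4.50 CPM and 29.0, 1.26 and 1.46 CPM, so that it was higher in Aalter-2 and Aalter-3 than in VE-2 and VE-3. Apoe, which macrophages also make, did not meet the rule, with 546, 250 and 249 CPM and 598, 523 and 703 CPM.

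Major urinary proteins had 15 members, all on chromosome 4, of 23 genes listed. Mup22 had 107, 3.82 and 14.9 CPM across Aalter libraries 1 to 3 and 110, 1.45 and 3.37 CPM across VE libraries 1 to 3. Mup20, which encodes the male pheromone darcin, had 45.2, 2.67 and 4.57 CPM and 46.4, 1.34 and 0.995 CPM. Mup7 had 50.3, 0.516 and 14.4 CPM and 50.01, 0.527 and 0.163 CPM. These 3 genes were close in Aalter-1 and VE-1, and next highest in Aalter-3. Mup transcripts resemble each other: the share of 31-letter stretches of the longest transcript found also in another of the 217 genes was 100% for Mup15, Mup19 and Mup2, 82.9% for Mup17, 18.4% for Mup20 and 6.50% for Mup3. The counting could therefore have split reads between copies, and sums over the family are the firmer values.

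Summed over the 15 genes, the family stood at 404, 10.8 and 80.4 CPM across Aalter libraries 1 to 3 and at 431, 5.69 and 6.76 CPM across VE libraries 1 to 3. Relative to Alb in the same library this was 64.3%, 25.6% and 304% in the Aalter libraries and 59.1%, 27.9% and 21.3% in the VE libraries. The libraries numbered 1 were alike in this ratio, and Aalter-3 held more Mup than Alb counts. Among the other 4 libraries, 14 of the 15 genes were highest in Aalter-3. Mup3 and Mup20, whose transcripts share few stretches with the rest, stood at 3.33 and 4.57 CPM there, against at most 1.29 and 2.67 CPM in Aalter-2, VE-2 and VE-3. For comparison, over the 217 genes Aalter-3 was the highest of those 4 libraries for 70, Aalter-2 for 68, VE-3 for 58 and VE-2 for 19, and 2 genes were at 0 in all 4.

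**Figure D2:**
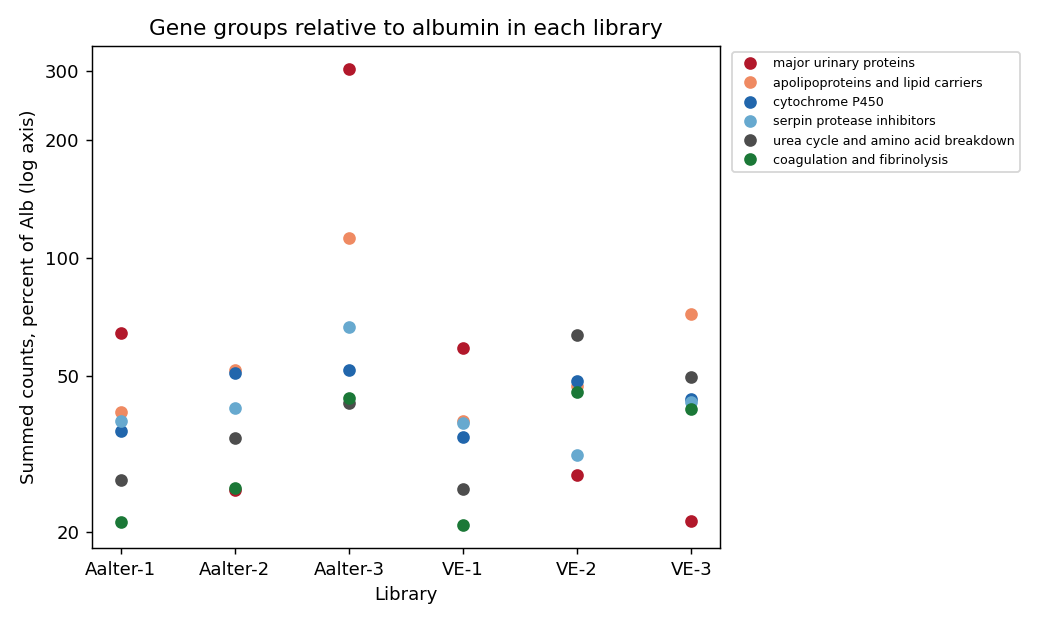
Summed estimated counts of 6 groups of the liver genes (each gene counted in 1 group), as a percent of the Alb count of the same library on a log axis, for each of the 6 libraries. Major urinary proteins stand at 64.3% and 59.1% in Aalter-1 and VE-1 and at 304% in Aalter-3.

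Of genes known to be higher in male mouse liver, 7 of 23 met the rule (Mup20, Mup7, Mup12, Serpina1e, Cyp2d9, Ugt2b1 and C8b), and of those higher in female liver 2 of 25 (Cyp4a14 and Cyp2a4). On these lists, 14 male-biased genes and 12 female-biased genes with counts did not exceed 1 CPM in both libraries numbered 1. They could not meet the rule, so the shares are not compared. Of the female-biased genes, 8 had no counts in either library numbered 1, of which 7 had none in any of the 6 libraries. Serpina1e had 8.49, 0.103 and 2.37 CPM across Aalter libraries 1 to 3 and 9.39, 0.0908 and 0.0723 CPM across VE libraries 1 to 3, and so was next highest in Aalter-3, like Mup7. The Y-linked gene Ddx3y was present in all 6 libraries, between 55.7 and 135 CPM.

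Serpins and related inhibitors of proteases had 15 members on their list of 27, of which 4, such as the antithrombin gene Serpinc1, also stood among clotting genes. Serpina3k, a relative of alpha-1-antichymotrypsin, had 73.6, 4.05 and 7.22 CPM across Aalter libraries 1 to 3 and 81.3, 1.42 and 3.20 CPM across VE libraries 1 to 3. The alpha-1-antitrypsin genes Serpina1a to Serpina1e all met the rule. Serpina1b led them with 43.8, 2.93 and 1.72 CPM and 53.7, 0.755 and 3.04 CPM. Between 50.2% and 80.8% of the 31-letter stretches of their transcripts were shared with another of the 217 genes, so levels of single copies are uncertain. They lie side by side on chromosome 12, between positions 103728156 and 103958975 of mm10.

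Clotting and fibrinolysis genes had 15 members of 28. The fibrinogen chains Fga, Fgb and Fgg, which form the fibrin clot, lie between positions 83007724 and 83049863 of chromosome 3. Fgb had 24.95, 1.29 and 0.864 CPM across Aalter libraries 1 to 3 and 23.9, 0.553 and 1.06 CPM across VE libraries 1 to 3. Fgg reached 23.8 and 25.8 CPM and Fga 17.5 and 21.5 CPM in Aalter-1 and VE-1, and neither was above 1.53 CPM elsewhere. Plg, for plasminogen, had 9.74 and 12.6 CPM in these libraries and Kng1, for kininogen, 12.3 and 14.3 CPM. F10, for clotting factor X, which other cells also make, did not meet the rule, with 290, 131 and 147 CPM and 344, 352 and 368 CPM. Complement had 11 members of 34. C8g and C9, of the membrane attack complex, had 2.63 and 2.57 CPM in Aalter-1 and 2.71 and 2.37 CPM in VE-1. Cfi, which cleaves active complement fragments, had 4.81 and 4.002 CPM in these libraries, and Mbl2, a mannose-binding lectin, 1.78 and 3.12 CPM. C3, made by many cells of inflamed tissue, did not meet the rule, with 523, 247 and 258 CPM and 557, 527 and 616 CPM.

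Acute phase genes, whose products liver secretes in inflammation, had 11 members of 31, among them Fga, Fgb, Fgg, Hpx, Itih4, Orm2 and Crp. The rule did not take Hp, for haptoglobin, which neutrophils also store, at 952, 593 and 630 CPM across Aalter libraries 1 to 3 and 1138, 1121 and 1053 CPM across VE libraries 1 to 3. Nor did it take the iron hormone Hamp, at 5.40, 3.62 and 3.76 CPM and 5.15, 0.237 and 0.597 CPM.

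Cytochrome P450 genes had 22 members of 68. Cyp2e1, which oxidises ethanol, had 53.7, 4.94 and 2.70 CPM across Aalter libraries 1 to 3 and 60.2, 2.25 and 3.09 CPM across VE libraries 1 to 3. Cyp3a11, a main drug-oxidising P450 of mouse liver, had 49.3, 4.99 and 2.34 CPM and 55.7, 1.74 and 2.79 CPM. Cyp4a14 and Cyp4a10, which hydroxylate fatty acids, reached 24.95 and 19.2 CPM in Aalter-1 and 29.8 and 22.3 CPM in VE-1. Among the other 4 libraries these 4 genes, and 13 of the 22, were highest in Aalter-2. Cyp2f2, a P450 that airway club cells also make, did not meet the rule, with 17.9, 24.6 and 21.2 CPM and 11.9, 6.08 and 4.64 CPM.

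Conjugating and other detoxifying enzymes had 26 members of 82, the largest number of any list. Bhmt, which remethylates homocysteine with betaine, led in CPM with 43.2, 1.45 and 1.23 CPM across Aalter libraries 1 to 3 and 44.3, 1.26 and 2.25 CPM across VE libraries 1 to 3. Adh1, an alcohol dehydrogenase, had 14.6 and 13.8 CPM in Aalter-1 and VE-1, Gnmt, a glycine methyltransferase, 11.5 and 14.2 CPM, and Gsta3, a glutathione transferase, 11.2 and 9.97 CPM. The glucuronidating enzymes Ugt2b34, Ugt2b1, Ugt2b35, Ugt2b36, Ugt2b5 and Ugt2a3 form a run on chromosome 5 between positions 86889767 and 87337195. Of these, Ugt2b5 had 4.73 and 5.26 CPM in Aalter-1 and VE-1 and at most 0.555 CPM elsewhere.

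Urea cycle and amino acid breakdown genes had 23 members of 64, on a list that also holds Asgr1, a receptor for glycoproteins without that role. Mat1a, which makes the methyl donor S-adenosylmethionine in adult liver, had 45.0, 2.41 and 1.54 CPM across Aalter libraries 1 to 3 and 44.4, 2.29 and 3.45 CPM across VE libraries 1 to 3. Cps1, the entry enzyme of the urea cycle, had 26.9, 1.03 and 1.54 CPM and 30.0, 0.632 and 1.72 CPM. Hpd and Tat, which degrade tyrosine, had 15.9 and 9.22 CPM in Aalter-1 and 17.7 and 9.09 CPM in VE-1. Cdo1, which oxidises cysteine, had 15.1, 2.93 and 2.53 CPM and 20.8, 5.13 and 3.45 CPM, and so was higher in VE-2 and VE-3 than in Aalter-2 and Aalter-3. Arg1, the last enzyme of the cycle, which macrophages of inflamed lung also make, did not meet the rule, at 263, 125 and 146 CPM and 340, 313 and 331 CPM.

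Genes of glucose, fat and bile acid metabolism completed the lists. Pck1 and G6pc, enzymes of glucose production, had 14.5 and 3.56 CPM in Aalter-1 and 18.4 and 3.93 CPM in VE-1. Slc27a2, a fatty acid transporter, had 10.99 and 13.97 CPM in Aalter-1 and VE-1, Acaa1b, a thiolase of peroxisomes, 9.98 and 9.73 CPM, and Thrsp, a thyroid hormone-responsive gene of fat synthesis, 4.61 and 4.68 CPM. Slc10a1, the bile acid importer of hepatocytes, had 7.44, 0.947 and 0.679 CPM and 6.58, 0.632 and 1.13 CPM. Cyp7a1, the first enzyme of bile acid synthesis, did not meet the rule, with 15, 0 and 6 counts and 11, 0 and 1 counts.

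Transporters, receptors and other hepatocyte genes had 14 members of 60. Uox, for the urate oxidase that mice use to degrade uric acid, had 13.4, 0.603 and 0.617 CPM across Aalter libraries 1 to 3 and 15.5, 0.0790 and 0.398 CPM across VE libraries 1 to 3. Rgn, for the calcium-binding regucalcin, had 7.57 and 8.14 CPM in Aalter-1 and VE-1, Slc25a47, a mitochondrial carrier of liver, 6.25 and 6.99 CPM, and Rdh7, a retinol dehydrogenase, 5.07 and 6.28 CPM. Slc38a4, an amino acid importer, had 6.32 CPM in Aalter-1 and 5.29 CPM in VE-1, and the exact 95% counting interval of its ratio, 0.613 to 1.14, included 1.

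Only 1 of 28 hepatocyte transcription factors met the rule, Hnf4a, at 3.95, 0.172 and 1.36 CPM across Aalter libraries 1 to 3 and 3.87, 0.237 and 1.26 CPM across VE libraries 1 to 3. Like Apoa1 and Apob it was next highest in the libraries numbered 3. Of the other 27, 20 did not exceed 1 CPM in both libraries numbered 1 and 7 had too low a ratio, such as Cebpa, which myeloid cells also make, at 19.8, 20.3 and 22.0 CPM and 17.97, 16.6 and 17.6 CPM. Genes of both zones of the liver lobule were present, with 11 of 23 periportal genes (Cps1, Pck1 and Tat among them) and 14 of 28 pericentral genes (Cyp2e1, Cyp2c29 and Rgn among them).

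The remaining 30 genes stood on none of the function lists, and ranged in mean level of the libraries numbered 1 up to 8.02 CPM. Ndrg2 had 8.03, 2.32 and 2.90 CPM across Aalter libraries 1 to 3 and 8.003, 2.92 and 2.59 CPM across VE libraries 1 to 3. Rarres2, for the chemoattractant chemerin, had 7.88 and 7.92 CPM in Aalter-1 and VE-1, Car3, a carbonic anhydrase, 4.48 and 3.59 CPM, and Agt, for angiotensinogen, 3.23 and 4.07 CPM. Nnt, a proton-pumping enzyme of mitochondria, needs care, because the table gives 2 entries of that name. The entry that met the rule had 6.90, 1.11 and 0.0525 CPM across Aalter libraries 1 to 3 and 3.76, 0 and 0 CPM across VE libraries 1 to 3, while the other had 1.66, 8.36 and 9.27 CPM and 3.09, 5.13 and 6.04 CPM. Their sum, at 8.56, 9.47 and 9.32 CPM and 6.85, 5.13 and 6.04 CPM, did not meet the rule.

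By position, 44 of the 217 genes fell into 10 runs of at least 3, with gaps of at most 200000 bases. Chromosome 4 held 25 of the genes. Besides the runs named above, Apoa1, Apoc3, Apoa4 and Apoa5 lie on chromosome 9 between positions 46228580 and 46271919, and Ahsg, Fetub, Hrg, Kng2 and Kng1 on chromosome 16 between 22891277 and 23082078. The Mup genes form 2 runs, of 6 genes between 61300023 and 61782269 and of 5 between 60418046 and 60821463.

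Aalter-1 and VE-1 were next compared gene by gene. The rule requires both to stand above the other 4 libraries, which drops genes high in either alone and can narrow the spread between them. Across the 217 genes the log2 CPM of the libraries had a Pearson correlation of 0.983, a description over genes that share libraries. Among genes with at least 100 counts in both, it was 0.991 over 76 of the 217 and 0.975 over all 8466. The median ratio of VE-1 to Aalter-1 was 1.11 over the 76 genes with at least 100 counts in both, or 0.15 on the log2 scale, with an SD of 0.15 over genes. Over the 8466 genes the median log2 ratio was -0.15 and the SD 0.38. These medians are on library totals. Over all 217 genes the median log2 ratio was 0.12 on library totals and 0.31 on library sizes scaled as for the tests (TMM). Of the 76 genes, 60 were higher in VE-1, against 2702 of the 8466. For 9 of the 76 the counting interval left out their median ratio, against 5171 of the 8466 for theirs. Counting intervals narrow as counts rise, and these sets were not matched for counts. Their SDs and shares are therefore not read against each other.

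Those farthest above the median were Mup19 at a ratio of 1.39 (exact 95% counting interval 1.25 to 1.56), Cdo1 at 1.38 (1.16 to 1.64) and Serpina1a at 1.34 (1.16 to 1.54). Lowest were Mup14 at 0.821 (0.702 to 0.960), Gsta3 at 0.891 (0.709 to 1.12) and Pon1, for the lipoprotein enzyme paraoxonase, at 0.913 (0.691 to 1.20). Mup19, Mup14 and Serpina1a are genes whose reads could be split between copies. These intervals cover counting error only, and with 1 library of each group in the ratio there is no replicate check.

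**Figure D3:**
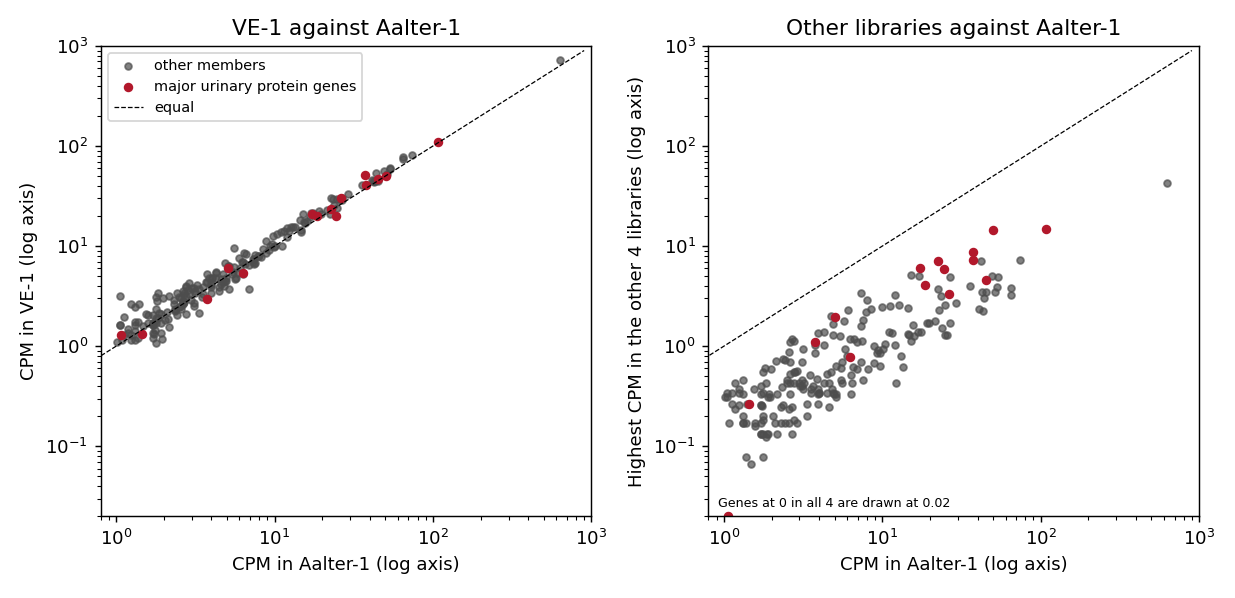
Left, CPM of the 217 genes in VE-1 against Aalter-1; right, the highest CPM in the other 4 libraries against Aalter-1, on log axes, with the line of equality and major urinary protein genes in red. Points on the left follow the line with a correlation of 0.983 in log2 CPM, and on the right all lie below it, since the genes were chosen for this.

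On log2(CPM + 0.3), the correlation over the 217 genes was 0.985 between Aalter-1 and VE-1, and Aalter-1 correlated with Aalter-2 at 0.814, with Aalter-3 at 0.818, with VE-2 at 0.692 and with VE-3 at 0.755. The rule sets a floor in the first pair and a cap in the other 4 libraries, so these values are not read against each other. In the 4 libraries counts are low: 97 of the 217 genes were under 0.3 CPM in Aalter-2, 80 in Aalter-3, 122 in VE-2 and 99 in VE-3. Of the 217 genes, 30 exceeded 3 CPM in the highest of the 4.

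The comparison of VE with Aalter, the study's own contrast, asks how the 3 VE libraries differ from the 3 Aalter libraries, and each group holds 1 of the libraries with high liver transcripts. Of 12551 genes tested with edgeR's quasi-likelihood test, 4054 passed at an adjusted p under 0.05, which is 32.3% (12.8% higher in VE and 19.5% lower). None of the liver genes did in this fit: 101 of the 217 passed the filter on low counts and 0 of 101 were called, with 0 at an unadjusted p under 0.05 and a smallest adjusted p of 0.574. DESeq2 and limma-voom also called 0 of 101, where they called 4505 and 4108 of the 12551 genes in all. Without the filter 0 of 217 were called, where 3525 of 17720 genes were called in all. With the replicate number as a further term in edgeR, 2 of 101 were called, Ambp and Cdo1, where 3267 of 12551 genes were called in all. Since the rule chose genes high in 1 library of each group, a wide spread within groups came with the choice. The lack of calls in the other fits is a description of these genes and no finding of equal levels. The filter needs enough reads in at least 3 libraries, so the 101 are the genes also seen outside Aalter-1 and VE-1. Alb had a log2 fold change of 0.35 ± 1.85 (SE, edgeR, adjusted p = 0.903) and Cyp3a11 one of 0.27 ± 1.70 (adjusted p = 0.919). The median log2 fold change of the 101 genes was 0.21, against 0.02 over all genes tested, and scaling by library size alone moved the latter to -0.12 and the former to 0.03. Under limma-voom the median of the 101 genes was -0.11, with 38 of 101 above 0, so the median has no settled direction.

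With 1 of the libraries numbered 1 left out, the direction of the whole set is fixed by the choice of genes. Without Aalter-1 the median log2 fold change of the 101 genes tested was 2.15, with 101 of 101 above 0, and 3 were called by edgeR: Fgl1, a hepatocyte-secreted fibrinogen-like protein (3.47, adjusted p = 0.0499), Itih1, an inhibitor heavy chain of plasma (2.50, adjusted p = 0.0260), and Col18a1, a basement membrane collagen (1.71, adjusted p = 0.0167). Without VE-1 the median was -2.75, with 101 of 101 below 0, 0 called and 15 at an unadjusted p under 0.05. These signs, medians and calls are a description, since the rule places the remaining library numbered 1 above the other 4 for every gene. Alb moved to 3.06 without Aalter-1 and to -2.99 without VE-1. With no filter on low counts, added after seeing the data, the medians over all 217 genes were 2.43 and -2.69. Over all genes, edgeR called 7213 of 12804 (56.3%) without Aalter-1 and 481 of 12775 (3.77%) without VE-1.

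**Figure D4:**
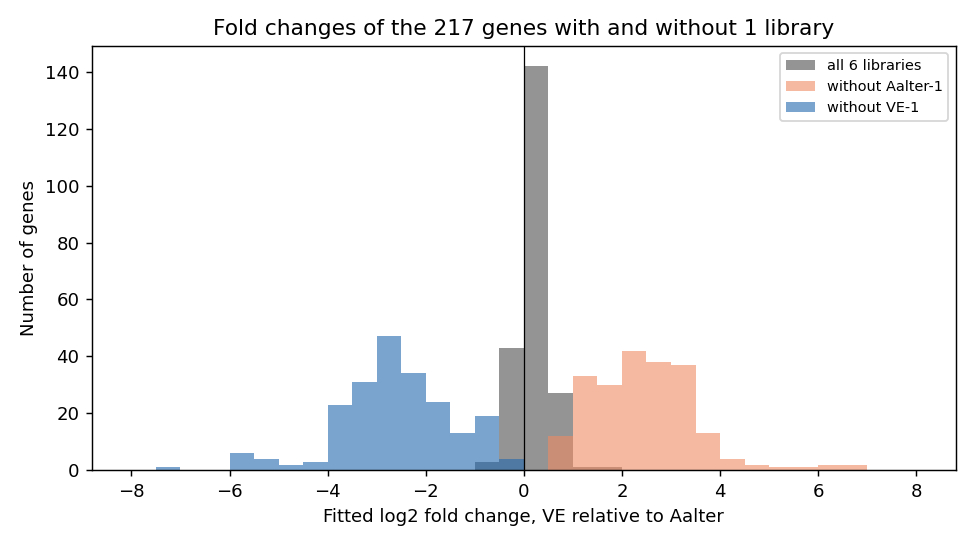
Number of genes by fitted log2 fold change of VE relative to Aalter (edgeR, no filter on low counts) for the 217 liver genes, with all 6 libraries, without Aalter-1 and without VE-1. With all 6 the values lie around 0, and leaving out a library numbered 1 moves the medians to 2.43 and -2.69.

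Without both libraries numbered 1, the contrast rests on 2 libraries against 2 at the low levels given above. The filter then needs enough reads in at least 2 libraries, so a gene could enter through the group where it is high. Slc38a3, for example, had 0.947 and 0.864 CPM in the Aalter libraries left and 0.237 and 0.0663 CPM in the VE libraries left. The rule also capped the values of these libraries. The calls are therefore a description and no test of liver genes between the groups. Of the liver genes, 74 could be tested and 13 were called by edgeR, 4 higher in VE and 9 lower, where 6963 of 12518 genes (55.6%) were called in all. Higher were Itih1 at 1.51, Col18a1 at 1.10, Ambp, the precursor of alpha-1-microglobulin, at 0.84 and Cdo1 at 0.77 on the log2 scale. Lower were Slc38a3, a glutamine transporter, at -2.45, Pon1 at -2.01, Mup3 at -1.91, Fabp1 at -1.66, Serpina1c at -1.61, Mup20 at -1.54, Acaa1b at -1.33, Serpina3k at -1.17 and Apoa2 at -1.08. Ambp stood at 2.75 and 2.53 CPM in the Aalter libraries left and at 5.05 and 3.71 CPM in the VE libraries left, and Pon1 at 1.81 and 1.11 CPM and 0.158 and 0.464 CPM. Alb did not pass (-0.26, adjusted p = 0.657).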

How the data were processed

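Messenger RNA libraries from total RNA of mouse lung tissue were sequenced, 3 per group. Values in the deposited table are taken as estimated counts, since between 10.5% and 12.2% per library are not whole and totals differ between libraries. Columns named Aa were matched to Aalter by name and number. The submitters' processing notes name mm10. For aligner and counter, a name is not given in the sources used here. A stray extra cell in 1 row was left out. CPM were computed on library totals with pandas 2.3.3. Coordinates, gene types and longest transcripts came from GENCODE vM21.

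For tests, the estimated counts were rounded and fitted with edgeR 4.0.16 (TMM, filterByExpr on groups, robust quasi-likelihood, group as the only term, all 6 libraries, Benjamini-Hochberg over all tested genes, threshold 0.05). The fit was run on simulated data in which no library stood apart from its group, so that run does not cover a library such as Aalter-1. Standard errors are the fold change divided by the root of F. Alternatives were RLE and library-size scaling, no filter, DESeq2 1.42.0, limma-voom 3.58.1, a replicate block and libraries left out.

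Members and gene lists were chosen with earlier results of these data known. Named genes are the 20 highest per kilobase, up to 4 per function list, hepatocyte markers, genes nearest the limits, called genes, and the 3 highest and 3 lowest ratios of VE-1 to Aalter-1 among genes with at least 100 counts in both. Other genes named were chosen after their values were seen. Some genes that this rule takes are not reported here.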

Additional observations from a re-analysis of the deposited data

How the results depend on the processing

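The rule gave 217 genes, and between 177 and 252 with a ratio above 1.5, a lower value above 0.5 CPM, 0.1 or 1 CPM added, TMM-scaled library sizes, or 1 library left out (220 to 252). It gave 133 with a ratio above 4 and 94 with a lower value above 5 CPM. Hepatocyte markers among them numbered 14 or 15 throughout.

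For VE against Aalter, leaving out 1 library gave between 179 and 7213 calls over all genes (7213 without Aalter-1, 921 without Aalter-2, 679 without Aalter-3, 481 without VE-1, 179 without VE-2 and 909 without VE-3) and between 0 and 3 among liver genes. The liver median then ranged from -2.75 to 2.15, Alb from -2.99 to 3.06 and Cyp3a11 from -2.89 to 2.62. Without both libraries numbered 1, 6963 genes and 13 liver genes were called, with Alb at -0.26 and Cyp3a11 at -0.53. In fits added after seeing the data, with no filter, 7114 genes and 3 liver genes were called without Aalter-1, and 888 and 0 without VE-1 (Alb -3.001, Cyp3a11 -2.90). Limma-voom gave a liver median of -0.11, Alb -0.055 and Cyp3a11 -0.21. The cause of these changes was not tested.

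With a replicate block, 3267 genes and 2 liver genes were called (Ambp 0.69 and Cdo1 0.70), with the liver median at 0.02, Alb at -0.035 and Cyp3a11 at -0.091. The labels do not say whether the numbers pair the libraries, and the main fit had group as its only term. Same-numbered libraries correlated in their deviations from group means at 0.299, 0.272 and 0.0531 for numbers 1 to 3. Libraries of different numbers correlated at between -0.289 and 0.171. For numbers 1 and 2 the same-numbered value was above all of these. For number 3 it was below those of Aalter-3 with VE-2 (0.171) and Aalter-2 with VE-3 (0.0967). Whether the numbers pair the libraries was not tested.

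In the 4 other libraries many liver genes rest on a few counts, so ratios there are coarse.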

Other observations

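Genes of the intestine did not follow the liver genes. They were read from a list of 16 genes whose sum was 31.2, 24.8 and 70.7 CPM across Aalter libraries 1 to 3 and 44.0, 29.1 and 80.4 CPM across VE libraries 1 to 3, highest in the libraries numbered 3. Reg3b, an antibacterial lectin of gut, had 0, 0.0861 and 16.6 CPM and 5.29, 0 and 15.3 CPM. Muc2, the gut mucin, had 1, 11 and 63 counts and 10, 1 and 40 counts. Zg16, which binds to that mucin, had 0, 0 and 26 counts and 13, 0 and 39 counts. Sis, the sugar-splitting sucrase-isomaltase, had 0, 0 and 16 counts and 12, 0 and 19 counts. Each of these 4 genes was highest in Aalter-3 or VE-3, and VE-1 held more than Aalter-1. The liver levels of Aalter-1 and VE-1 were nearer to each other in CPM on library totals. Fabp2, the fatty acid-binding protein of gut, differed from them with 19, 0 and 25 counts and 31, 0 and 22 counts. No group difference in these genes was tested, and they were chosen after their values were seen.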
